A study of Homo sapiens with 18 samples.

Results

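The genes described here are 10 AP-1 and immediate early genes: FOS, FOSB, FOSL1, FOSL2, JUN, JUNB, JUND, ATF3, EGR1 and IER2. They were chosen as a named list and found by matching Ensembl identifiers to gene symbols, which located all 10 among 58825 genes in the count tables. OVCAR-3, an established cell line of high-grade serous ovarian cancer, was treated with DMSO, 1 µM i-BET858 or 1 µM i-BET151. RNA was taken after 4 or 24 h, with 3 replicates of each of the 6 groups, which gave 18 libraries. DMSO is the solvent control, i-BET151 is an inhibitor of the bromodomains of the BET proteins, and i-BET858 is described by the study as a bivalent inhibitor of the whole BET family. Per the labels, cells were grown in multi-well plates and all 6 groups were treated in stripped medium, and all results come from a single cell line at a single dose.

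Immediate early genes are transcribed within minutes of a growth factor or stress signal without new protein synthesis, mostly through kinases of the MAPK cascades that act on factors already bound at the promoter. Fos proteins (FOS, FOSB, FOSL1, FOSL2) dimerise with Jun proteins (JUN, JUNB, JUND) to form AP-1, a transcription factor that controls proliferation, invasion and stress responses in epithelial tumours. BET proteins read acetylated histones and help RNA polymerase II pass from pausing into elongation, a step at which many immediate early genes are controlled.

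Promoters of 5 genes are printed, as examples: FOS, JUN, JUND and EGR1 rose in all 4 comparisons with DMSO, as did ATF3, whose windows are not printed, and JUNB changed course with time. RefSeq windows on GRCh38.p14, from 250 bases before to 50 bases after a transcription start, were found for 9 of the 10 genes, with 2 windows for ATF3. FOSL1 had no window. Capitals mark exact matches, on either strand, to the motifs named after the sequences.
FOS (chr14:75278578-75278877, plus strand): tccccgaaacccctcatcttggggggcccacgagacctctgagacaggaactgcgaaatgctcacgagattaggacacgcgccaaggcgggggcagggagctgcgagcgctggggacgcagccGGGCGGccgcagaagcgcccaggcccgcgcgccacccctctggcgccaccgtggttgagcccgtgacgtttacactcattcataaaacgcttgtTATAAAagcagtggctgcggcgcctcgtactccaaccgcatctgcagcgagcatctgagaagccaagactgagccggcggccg
JUN (chr1:58783998-58784297, minus strand): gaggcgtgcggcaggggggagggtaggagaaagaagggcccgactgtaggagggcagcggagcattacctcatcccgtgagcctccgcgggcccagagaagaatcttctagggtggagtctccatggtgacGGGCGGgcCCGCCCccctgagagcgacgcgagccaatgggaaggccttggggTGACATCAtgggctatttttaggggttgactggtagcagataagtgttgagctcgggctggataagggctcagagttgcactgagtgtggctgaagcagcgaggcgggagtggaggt
JUNB (chr19:12791236-12791535, plus strand): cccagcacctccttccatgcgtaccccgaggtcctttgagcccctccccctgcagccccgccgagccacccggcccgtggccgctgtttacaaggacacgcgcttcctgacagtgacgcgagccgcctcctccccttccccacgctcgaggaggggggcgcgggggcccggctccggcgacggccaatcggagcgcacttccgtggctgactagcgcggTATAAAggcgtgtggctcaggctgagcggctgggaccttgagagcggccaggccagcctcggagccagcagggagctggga
JUND (chr19:18281573-18281872, minus strand): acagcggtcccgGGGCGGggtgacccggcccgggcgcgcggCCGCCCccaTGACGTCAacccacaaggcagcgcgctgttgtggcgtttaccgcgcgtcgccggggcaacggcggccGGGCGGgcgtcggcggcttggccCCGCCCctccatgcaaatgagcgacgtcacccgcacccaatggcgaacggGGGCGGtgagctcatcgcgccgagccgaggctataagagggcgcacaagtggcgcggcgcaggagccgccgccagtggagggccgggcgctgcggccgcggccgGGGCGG
EGR1 (chr5:138465229-138465528, plus strand): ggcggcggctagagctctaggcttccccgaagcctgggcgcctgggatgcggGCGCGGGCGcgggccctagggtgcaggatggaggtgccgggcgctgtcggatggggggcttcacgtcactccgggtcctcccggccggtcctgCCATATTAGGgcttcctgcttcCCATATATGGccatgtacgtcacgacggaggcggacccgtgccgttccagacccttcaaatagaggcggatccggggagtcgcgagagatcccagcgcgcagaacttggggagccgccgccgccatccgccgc

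Of 35116 windows of the same length, 1.29% held a CArG box, the site of serum response factor. Among the 9 genes, only EGR1 held the box within its window. It had 2 of them, CCATATTAGG from base -105 to -96 and CCATATATGG from base -83 to -74, counted from the start site. EGR1 was also the only gene of the 9 with a site of its own protein family (GCGNGGGCG, in 9.43% of all windows), from base -198 to -190. A cAMP response element or AP-1 site of 8 bases (TGACNTCA, in 7.72% of all windows) was present in 3 genes, as TGACATCA in JUN from base -67 to -60, as TGACGTCA in JUND from base -200 to -193, and as TGACATCA in ATF3. The AP-1 site of 7 bases (TGANTCA, in 7.71% of all windows) was found in FOSL2 alone. A TATA box (TATAAA, in 11.5%) stood in the windows of FOS, FOSB and JUNB and in the second window of ATF3, and the SP1 box GGGCGG (in 45.0%) in 7 of the 9 genes. The 7-base and 8-base motifs differ in length and were counted separately, and a match is a description of the letters only. All these counts refer to the windows alone, and sites outside them were not searched.

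The libraries held 27323969 to 46299994 counts, with a median of 32267434, so that a gene without a count (3 counts as the limit) would lie below 0.0653 to 0.109 CPM (counts relative to the scaled library total). The 6 libraries of replicate 3 stood apart, since 17817 to 20642 genes had a count there and 23674 to 24947 in replicates 1 and 2. The same libraries gave the highest JUND and EGR1 of their group in 6 of 6 groups and the lowest ATF3 and IER2 in 6 of 6, while each rise of these 4 genes described here was also present within each replicate number. All 10 markers of serous ovarian cancer cells were found in every library, PAX8 at 387 to 612 CPM. Their summed level was 8889 to 10236 CPM with DMSO and 12085 to 12530 CPM with i-BET858 at 4 h, and 8963 to 10309 CPM with DMSO and 6977 to 7292 CPM with i-BET858 at 24 h. With i-BET858, 3 of these 10 markers were called higher and 0 lower at 4 h, and 1 higher and 4 lower at 24 h. Under i-BET151 the sums were 10061 to 10562 CPM at 4 h and 6988 to 7447 CPM at 24 h, with 1 higher and 0 lower, and 1 higher and 3 lower, beside 14.5% and 16.3% of all genes higher and lower with i-BET858 at 4 h, 20.5% and 21.3% at 24 h, and 7.81% and 8.43%, then 17.2% and 16.6%, under i-BET151. The part of these markers in the results was not tested. Of 9 markers of immune, endothelial and stromal cells, CD3E, CD68, COL3A1 and DCN were at 0 in 14 to 17 of the 18 libraries. Those 9 summed to 22.8 to 52.1 CPM, mostly COL1A1 at 21.1 to 46.6 CPM.

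Levels are CPM scaled by TMM factors (edgeR's correction for library composition) and are given as mean ± SD over 3 replicates. Changes are log2 fold changes from edgeR's quasi-likelihood test, and a gene was called where the Benjamini-Hochberg p adjusted over all genes tested was below 0.05. All 10 genes passed the filter on low counts. CPM are relative values, so a change of a gene's RNA per cell and a change of all other RNA cannot be told apart. The study describes the replicates as biological, the labels do not say whether they were separate cultures, and p-values measure the spread between these libraries. Both inhibitors were compared with the same DMSO libraries, so their changes are not independent of each other.

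At 4 h, 8 of the 10 genes rose with i-BET858: FOS, FOSB, JUN, JUNB, JUND, ATF3, EGR1 and IER2. Of these, 6 rose at least 2-fold, all but JUN and IER2. Among all 17192 genes tested at 4 h, 14.5% rose and 16.3% fell, and 14.1% passed the test with a change of at least 2-fold in either direction. None of the 10 genes fell, FOSL1 and FOSL2 did not pass the test, and the median log2 fold change was 1.18 over the 10 genes and 0.02 over all genes. Under i-BET151 at 4 h, 6 of the 10 genes rose (FOS, FOSB, JUN, JUND, ATF3 and EGR1) and none fell, beside 7.81% of all genes that rose and 8.43% that fell. At least 2-fold rises were found for 5 of them, all but JUN, where 7.1% of all genes changed that much. The median log2 fold change was 0.76 over the 10 genes and 0.01 over all genes.

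At 24 h, 5 of the 10 genes (FOS, JUN, JUND, ATF3 and EGR1) were higher than DMSO after i-BET858, 4 of them at least 2-fold, and none was lowered. Among 17157 genes tested, 20.5% rose, 21.3% fell and 18.8% changed at least 2-fold, so the background was larger than at 4 h. The same 5 genes rose under i-BET151, but JUNB fell, and only FOS changed at least 2-fold, with EGR1 (1.997-fold) and ATF3 (1.97-fold) just under that limit. There 17.2% of all genes rose, 16.6% fell and 13.7% changed at least 2-fold. The median log2 fold change at 24 h was 0.52 over the 10 genes with either inhibitor, and -0.01 and 0.00 over all genes. Without the replicate 3 libraries, the numbers of the 10 genes called were 8 and 7 at 4 h and 6 and 7 at 24 h (i-BET858 and i-BET151 in turn), beside 8, 6, 5 and 6 with all replicates. The shares of all genes called rose as well without them, to 41.9% and 25.9% at 4 h and 60.7% and 54.2% at 24 h.

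**Figure D1:**
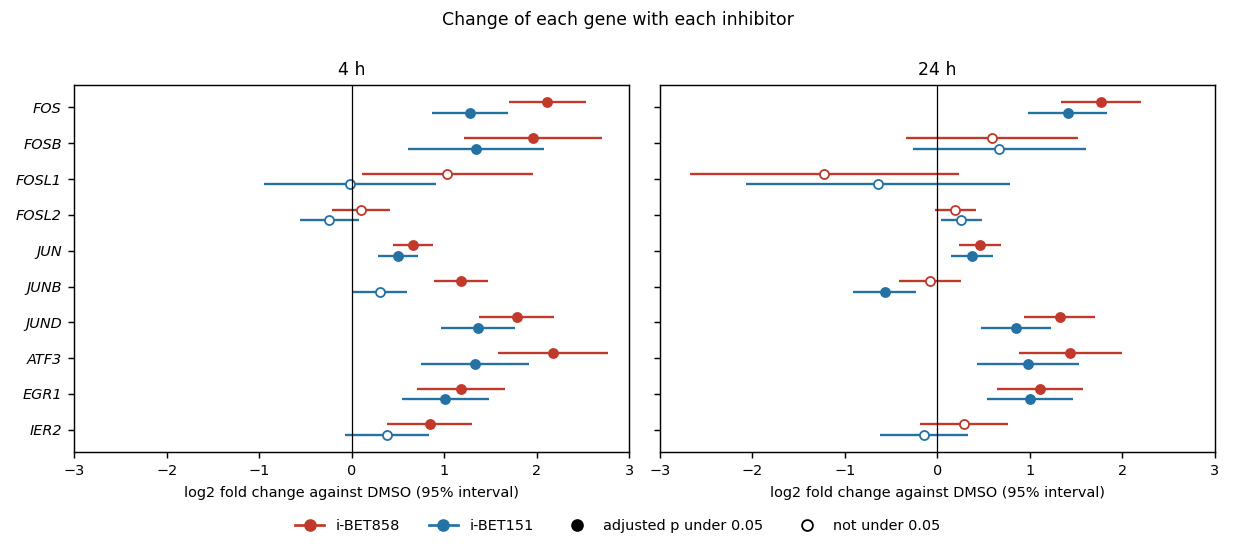
Log2 fold change against DMSO (x axis) of each of the 10 genes (y axis) with i-BET858 (red) and i-BET151 (blue) at 4 h (left) and 24 h (right), with 95% intervals from the edgeR fit. Filled points have an adjusted p below 0.05; at 4 h FOS reached 2.11 and ATF3 2.18 with i-BET858, and at 24 h JUNB under i-BET151 lay at -0.57.

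FOS (14:75278826-75282230 on GRCh38, plus strand, 4 exons) encodes the best known Fos protein, an unstable activator that needs a Jun partner. With DMSO at 4 h it was measured at 9.12, 14.9 and 15.2 CPM in replicates 1, 2 and 3, with i-BET858 at 52.9, 55.2 and 61.5 CPM, and under i-BET151 at 30.6, 34.7 and 30.1 CPM. The 3 groups did not overlap, with i-BET858 highest and DMSO lowest. The log2 fold change was 2.11 ± 0.19 (SE, adjusted p = 1.47e-05) with i-BET858 and 1.28 ± 0.19 (adjusted p = 9.48e-04) under i-BET151. At 24 h, FOS lay at 8.69, 7.20 and 6.49 CPM with DMSO, at 24.1, 21.8 and 32.7 CPM with i-BET858, and at 21.0, 16.8 and 22.6 CPM under i-BET151. Every treated library was above every DMSO library, while the inhibitors overlapped. The rises were 1.77 ± 0.19 (adjusted p = 4.6e-05) and 1.41 ± 0.19 (adjusted p = 3.06e-04) on the log2 scale. No change of either effect between the times was detected, with intervals of -0.88 to 0.27 for i-BET858 and -0.42 to 0.73 for i-BET151.

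FOSB (19:45467995-45475179, plus strand), a Fos protein known for its lasting truncated form in neurons, was called at 4 h and not at 24 h, and had few counts. It had 38, 63 and 69 counts with DMSO, 188, 172 and 237 with i-BET858, and 94, 84 and 222 under i-BET151. As CPM these were 1.17, 1.62 and 2.16 with DMSO, 6.86, 5.64 and 6.73 with i-BET858, and 3.26, 3.05 and 6.23 under i-BET151. Both treated groups lay wholly above DMSO, and the highest i-BET151 library, replicate 3, reached into the i-BET858 group. The log2 fold changes were 1.96 ± 0.34 (SE, adjusted p = 0.00114) with i-BET858 and 1.34 ± 0.34 (adjusted p = 0.0191) under i-BET151. The latter was no longer called without DMSO replicate 1 (adjusted p = 0.0835), DMSO replicate 2 (0.0654) or i-BET151 replicate 3 (0.0536). The 3 groups overlapped at 24 h, at 0.669 to 1.82 CPM with DMSO, 1.47 to 2.02 CPM with i-BET858 and 1.46 to 2.62 CPM under i-BET151, and neither change passed the test. The change of effect between the times was -1.33 ± 0.53 (SE, adjusted p = 0.0735) with i-BET858 and -0.66 (adjusted p = 0.471) under i-BET151. The former was called with DESeq2 (adjusted p = 0.0378), the replicate block (0.0312) and replicates 1 and 2 only (0.00206). It was also called without DMSO replicate 3 at 24 h (0.0304).

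FOSL1 (11:65892049-65900573, minus strand), which encodes FRA-1, a Fos protein tied to invasion in many carcinomas, was the least counted gene of the list. With DMSO at 4 h it had 39, 76 and 20 counts (1.20, 1.96 and 0.627 CPM), with i-BET858 66, 79 and 97 counts (2.41, 2.59 and 2.75 CPM), and under i-BET151 42, 38 and 33 counts (1.46, 1.38 and 0.927 CPM). The i-BET858 libraries lay above all DMSO libraries, which were widely spread, and the i-BET151 libraries lay among them. The difference of i-BET858 from DMSO was 1.03 ± 0.42 (SE) on the log2 scale with an adjusted p of 0.0878. It was 1.14 (adjusted p = 0.0274) with the replicate number as a block and 1.49 (adjusted p = 0.0379) without DMSO replicate 2. At 24 h, FOSL1 had 25, 24 and 19 counts with DMSO, 16, 10 and 11 with i-BET858 and 19, 5 and 27 under i-BET151. The i-BET858 libraries lay below all DMSO libraries there, at -1.22 ± 0.66 (SE), with an adjusted p of 0.165. In replicates 1 and 2 alone FOSL1 was called lower at 24 h with both inhibitors, at -1.33 (adjusted p = 0.0322) with i-BET858 and -1.32 (adjusted p = 0.0390) under i-BET151, the latter against -0.64 with all replicates.

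The effect of i-BET858 on FOSL1 differed between the times by -2.21 ± 0.72 (SE) on the log2 scale (adjusted p = 0.0283), from above DMSO at 4 h to below it at 24 h. That call was lost without DMSO replicate 1 (adjusted p = 0.0596) or 3 (0.0662) at 4 h, DMSO replicate 1 (0.0530) or 2 (0.0598) at 24 h, or i-BET858 replicate 1 (0.0506) or 2 (0.0624) at 24 h. It was also lost with no filter on low counts (-2.17, adjusted p = 0.0957). The size of the difference stayed between -2.29 and -1.89 in those fits.

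FOSL2 (2:28392448-28417317, plus strand), which encodes FRA-2, was the most abundant Fos family mRNA, and no change against DMSO was called at either time. At 4 h it lay at 173 to 213 CPM with DMSO, 173 to 220 CPM with i-BET858 and 140 to 187 CPM under i-BET151. At 24 h the ranges were 142 to 159, 164 to 184 and 171 to 200 CPM. The ranges overlapped at 4 h, and at 24 h both treated groups lay above DMSO. At 24 h the log2 fold change under i-BET151 was 0.26 ± 0.10 (SE, adjusted p = 0.0674), which became 0.26 with an adjusted p of 0.0233 with the replicate block. The intervals of the i-BET858 effect were -0.22 to 0.41 at 4 h and -0.03 to 0.41 at 24 h. When libraries were scaled by their totals, the FOSL2 value with i-BET858 at 4 h moved from 0.10 to -0.06.

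JUN (1:58776845-58784048, minus strand, 1 exon) encodes the Jun protein with the strongest transactivation, which JNK kinases phosphorylate. With DMSO at 4 h it was measured at 209, 213 and 214 CPM, with i-BET858 at 342, 355 and 306 CPM, and under i-BET151 at 288, 313 and 300 CPM. Both treated groups lay above DMSO, and they overlapped with each other. The rise was 0.66 ± 0.10 (SE, adjusted p = 3.85e-04) with i-BET858 and 0.50 ± 0.10 (adjusted p = 0.00514) under i-BET151 on the log2 scale. At 24 h, JUN lay at 188, 181 and 165 CPM with DMSO, 254, 257 and 240 CPM with i-BET858, and 263, 210 and 229 CPM under i-BET151. Again every treated library exceeded every DMSO library, by 0.46 ± 0.10 (adjusted p = 0.00463) and 0.38 ± 0.10 (adjusted p = 0.0162). The call under i-BET151 was lost without DMSO replicate 2 (adjusted p = 0.0545) or i-BET151 replicate 1 (0.0830).

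JUNB (19:12791486-12793315, plus strand, 1 exon) encodes a Jun protein that can restrain JUN and that controls passage through mitosis. In the fit of all 18 libraries without the replicate block, it alone of the 10 genes was called for a change of effect with time under both inhibitors. With DMSO at 4 h it lay at 29.5, 33.5 and 33.9 CPM, with i-BET858 at 71.1, 76.5 and 71.1 CPM, and under i-BET151 at 41.2, 44.7 and 34.2 CPM. The i-BET858 libraries stood well above the rest, and the lowest i-BET151 library was just above the highest DMSO library. The rise with i-BET858 was 1.18 ± 0.13 (SE, adjusted p = 6.43e-05). Under i-BET151 the value was 0.30 ± 0.13 (adjusted p = 0.147), which was called with the replicate block (0.30, adjusted p = 0.0475) and in replicates 1 and 2 alone (0.44, adjusted p = 0.0345). At 24 h, JUNB was at 26.7, 29.2 and 37.3 CPM with DMSO, 27.6, 31.3 and 31.6 CPM with i-BET858, and 21.4, 19.0 and 23.3 CPM under i-BET151. The i-BET858 libraries lay among the DMSO libraries and the i-BET151 libraries below all of them. JUNB thus fell by 0.57 ± 0.15 under i-BET151 (adjusted p = 0.0142), a call that was lost without i-BET151 replicate 2 (adjusted p = 0.0608). With i-BET858 the value was -0.08 (interval -0.42 to 0.25), and it turned to 0.10 without DMSO replicate 3.

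JUNB was called for a change of effect between 4 and 24 h with both inhibitors. The log2 fold change against DMSO at 24 h, less that at 4 h, was -1.22 ± 0.19 (SE, adjusted p = 1.68e-04) with i-BET858 and -0.86 ± 0.19 (adjusted p = 0.00696) under i-BET151. Over all 18154 genes in the fit of the 18 libraries, 27.2% were called for a change of the i-BET858 effect, beside 2 of the 10 genes (FOSL1 and JUNB). For i-BET151, 13.8% were called, beside 1 of the 10 (JUNB). These shares are close to the background for the list as a whole. With the replicate number as a block, 5 of the 10 genes were called for i-BET858 (FOSB, FOSL1, JUNB, JUND and ATF3) and 3 for i-BET151 (FOSL2, JUNB and JUND). In the same fits 38.3% and 25.2% of all genes were called. The exons of JUNB share 259 bases with HOOK2 on the opposite strand, and the sources used here do not say whether reads were counted by strand.

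JUND (19:18279694-18281622, minus strand, 1 exon), a Jun protein present in most resting cells, rose in all 4 comparisons with DMSO. At 4 h it lay at 93.1, 82.5 and 113 CPM with DMSO, 309, 274 and 407 CPM with i-BET858 and 246, 207 and 293 CPM under i-BET151. The lowest treated library was far above the highest DMSO library, and the inhibitors overlapped. The log2 fold changes were 1.78 ± 0.18 (SE, adjusted p = 3.61e-05) and 1.37 ± 0.18 (adjusted p = 5.32e-04). Within replicate numbers they were 1.73, 1.73 and 1.85 with i-BET858 and 1.40, 1.33 and 1.37 under i-BET151, so the replicates differed in level and hardly in the size of the rise. At 24 h, JUND lay at 90.0, 102 and 127 CPM with DMSO, 245, 264 and 313 CPM with i-BET858 and 180, 168 and 236 CPM under i-BET151. The rises were 1.32 ± 0.17 (adjusted p = 1.48e-04) and 0.85 ± 0.17 (adjusted p = 0.00319), and no treated library overlapped DMSO. The change of effect from 4 to 24 h was -0.41 with i-BET858 and -0.49 under i-BET151 and was not called, while with the replicate block it was called for both, at -0.40 (adjusted p = 0.0126) and -0.50 (adjusted p = 0.00460).

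**Figure D2:**
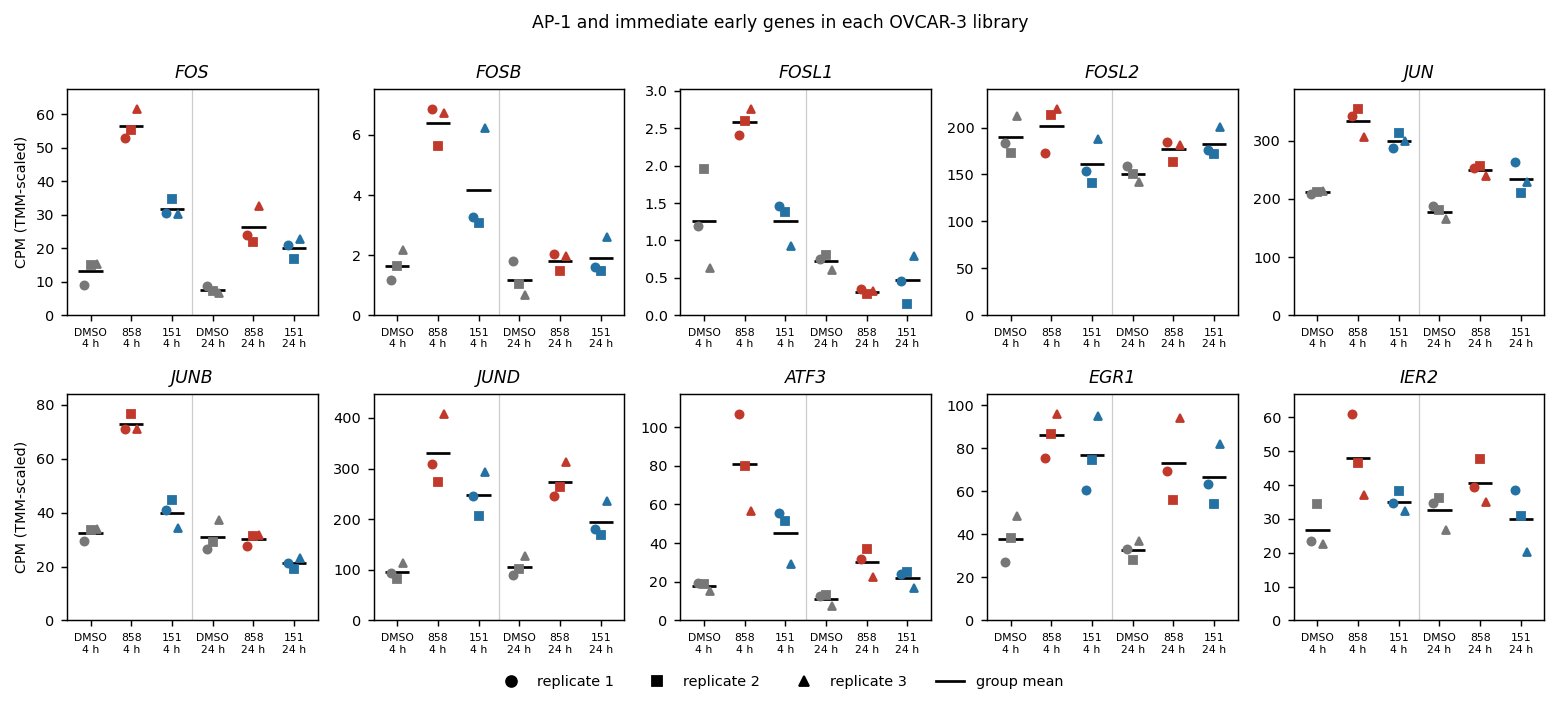
CPM scaled by TMM factors (y axis, from 0) of the 10 genes in each of the 18 libraries, by inhibitor and time (x axis), with circles, squares and triangles for replicates 1, 2 and 3 and lines for group means. FOS, JUND, ATF3 and EGR1 lie above DMSO in every treated library at both times, whereas JUNB with i-BET858 lies at 71.1 to 76.5 CPM at 4 h and at 27.6 to 31.6 CPM at 24 h.

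ATF3 (1:212565334-212620777, plus strand) encodes a stress-induced factor that pairs with Jun proteins and often represses transcription. At 4 h it was measured at 19.6, 19.1 and 15.2 CPM with DMSO, at 107, 79.9 and 56.8 CPM with i-BET858, and at 55.6, 51.3 and 29.0 CPM under i-BET151. Every treated library exceeded DMSO, and replicate 3 was lowest in each group. The log2 fold changes were 2.18 ± 0.27 (SE, adjusted p = 1.33e-04) with i-BET858 and 1.33 ± 0.27 (adjusted p = 0.00619) under i-BET151. At 24 h, ATF3 lay at 12.8, 12.9 and 7.23 CPM with DMSO, 31.8, 37.0 and 22.5 CPM with i-BET858, and 24.0, 24.9 and 16.9 CPM under i-BET151. The groups of treated libraries still did not overlap DMSO, at 1.44 ± 0.25 (adjusted p = 0.00100) and 0.98 ± 0.25 (adjusted p = 0.0118). The latter call was lost narrowly without i-BET151 replicate 2 (adjusted p = 0.0503). The change of effect from 4 to 24 h was -0.70 with i-BET858 (adjusted p = 0.207) and -0.34 under i-BET151 (adjusted p = 0.645), and was not called. In replicates 1 and 2 alone it was called for both, at -0.86 (adjusted p = 0.00219) and -0.56 (adjusted p = 0.0408). For i-BET858 it was also called with the replicate block (-0.65, adjusted p = 0.00616) and with no filter on low counts (-0.67, adjusted p = 0.0408).

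EGR1 (5:138465479-138469303, plus strand) encodes a zinc finger factor that responds to growth factors through serum response factor. At 4 h it lay at 27.3, 38.4 and 48.3 CPM with DMSO, 75.6, 86.6 and 95.8 CPM with i-BET858, and 60.8, 74.5 and 95.2 CPM under i-BET151. No treated library overlapped DMSO, and the inhibitors overlapped widely. The log2 fold changes were 1.18 ± 0.22 (SE, adjusted p = 0.00161) and 1.01 ± 0.22 (adjusted p = 0.00839). At 24 h the values were 33.3, 28.1 and 37.1 CPM with DMSO, 69.3, 56.1 and 94.1 CPM with i-BET858, and 63.5, 54.2 and 82.2 CPM under i-BET151. The rises of 1.11 ± 0.21 (adjusted p = 0.00160) and 1.00 ± 0.21 (adjusted p = 0.00408) were close to those at 4 h, and the change between the times had intervals of -0.68 to 0.64 and -0.65 to 0.66.

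IER2 (19:13150411-13154911, plus strand), a nuclear protein induced by growth factors, rose with i-BET858 at 4 h. It was measured at 23.5, 34.5 and 22.6 CPM with DMSO, 60.9, 46.5 and 36.9 CPM with i-BET858, and 34.8, 38.2 and 32.3 CPM under i-BET151. The i-BET858 libraries lay above all DMSO libraries, by a narrow margin for replicate 3, and the i-BET151 libraries overlapped DMSO. The log2 fold change was 0.84 ± 0.21 (SE, adjusted p = 0.00952) with i-BET858, and the call was lost without DMSO replicate 1 (adjusted p = 0.0507). Under i-BET151 the value was 0.38 ± 0.21 (adjusted p = 0.251). At 24 h, IER2 lay at 26.8 to 36.1 CPM with DMSO, 35.0 to 47.7 CPM with i-BET858 and 20.3 to 38.7 CPM under i-BET151, and neither comparison was called. Exons of IER2 overlap ENSG00000267598 (946 bases) and ENSG00000287296 (662 bases), non-coding RNAs on the opposite strand, so that reads of these genes cannot be told apart without strand.

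Compared directly at the same dose and time, the inhibitors differed in 1 of the 10 genes at 4 h, JUNB, where 0.971% of all genes were called. An unadjusted p under 0.05 in edgeR was found for 7 of the 10 genes and 11.9% of all genes. JUNB was higher with i-BET858 by 0.87 on the log2 scale (interval 0.58 to 1.16, adjusted p = 0.0237), in 9 of 9 pairs of libraries. This call was lost when any of the 6 libraries compared was left out (adjusted p from 0.0505 to 0.107). It was also lost when only these 2 groups were fitted (0.0855), where 0 of all genes were called. The JUNB value stayed at 0.77 to 0.96 with single libraries left out, where 0 to 44 of all genes were called, against 167. All 10 genes had a positive value at 4 h, from 0.16 for JUN to 1.05 for FOSL1. FOS was 0.84 higher (interval 0.43 to 1.24, adjusted p = 0.0588) and ATF3 0.85 higher (0.27 to 1.42, adjusted p = 0.177), both in 9 of 9 pairs. DESeq2 called both, FOS at 0.84 (adjusted p = 0.00139) and ATF3 at 0.85 (adjusted p = 0.0294). It called 667 of all genes there, against 167 in edgeR. For EGR1 the interval was -0.30 to 0.64 and for JUN -0.05 to 0.37, so differences above these limits were not found at this precision.

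With the replicate number as a block, 5 genes were called at 4 h: FOS (0.84, adjusted p = 0.00176), JUNB, ATF3 (0.85, adjusted p = 7.66e-04), JUND (0.41, adjusted p = 0.00286) and FOSL2 (0.34, adjusted p = 0.0302). That block called 9.63% of all genes there, against 0.971% without it. At 24 h none of the 10 genes was called for a difference between the inhibitors, beside 0.21% of all genes, and 2 (JUNB and JUND) had an unadjusted p under 0.05 in edgeR, as did 11.4% of all genes. DESeq2 called 0 as well. The values were 0.49 for JUNB (interval 0.15 to 0.82, adjusted p = 0.235) and 0.47 for JUND (0.10 to 0.85, adjusted p = 0.306). The replicate block called JUNB (0.49, adjusted p = 0.0326), JUND (0.48, adjusted p = 0.00865) and ATF3 (0.45, adjusted p = 0.0371) at 24 h, beside 4.37% of all genes.

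**Figure D3:**
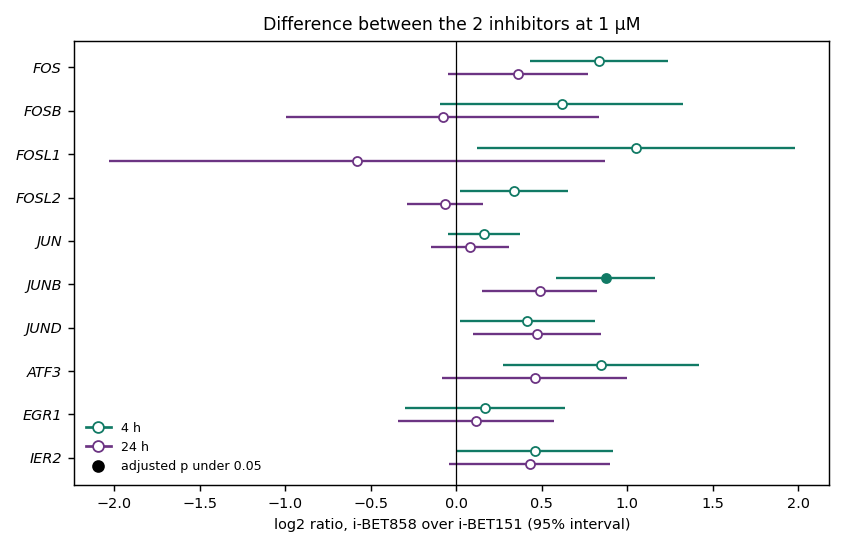
Log2 ratio of i-BET858 over i-BET151 (x axis, with 95% intervals) for each gene (y axis) at 4 h (green) and 24 h (purple), both at 1 µM. Filled points have an adjusted p below 0.05, which holds for JUNB at 4 h (0.87) alone, and all 4 h values lie to the right of 0.

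In DMSO alone, none of the 10 genes was called between 4 and 24 h, where 0.0386% of all genes were called, and 4 had an unadjusted p under 0.05 in edgeR, as did 9.17% of all genes. FOS was lower at 24 h, with a log2 difference of -0.81 ± 0.20 (SE, adjusted p = 0.157). DESeq2 called FOS there (-0.80, adjusted p = 0.0233), and the replicate block called FOS (-0.79, adjusted p = 0.0270) and ATF3 (-0.75, adjusted p = 0.00573), beside 1.28% and 2.07% of all genes in turn. Besides FOS, the genes with an unadjusted p under 0.05 in edgeR were ATF3 (-0.71, adjusted p = 0.422), JUN (-0.25, adjusted p = 0.390) and FOSL2 (-0.33, adjusted p = 0.375).

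Between genes, levels were compared per kilobase of the MANE Select transcript. In DMSO at 4 h, JUN was highest at 65.1 ± 0.717 CPM per kb (SD, n = 3), followed by JUND at 49.9 ± 8.08 and FOSL2 at 28.2 ± 3.07. JUNB lay at 17.7 ± 1.33, IER2 at 12.7 ± 3.15, EGR1 at 12.1 ± 3.35, ATF3 at 9.26 ± 1.25 and FOS at 6.22 ± 1.63 CPM per kb. FOSL1 (0.741 ± 0.392) and FOSB (0.437 ± 0.132) were lowest and overlapped. EGR1 (8.71 to 15.4) overlapped both IER2 (10.7 to 16.4) and ATF3 (7.82 to 10.1), and IER2 reached into the range of JUNB (16.1 to 18.5). By union exon length EGR1 (12.1 CPM per kb) stood above IER2 (8.72). With i-BET858 at 4 h, JUND (171 ± 35.7 CPM per kb) stood above JUN (103 ± 7.75), as it did in the other treated groups, while in DMSO at 24 h JUND (55.1 ± 9.64) and JUN (54.5 ± 3.61) did not differ beyond their spread.

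The make-up of both families shifted with treatment. FOS made up 17.3% ± 3.73 (SD, n = 3) of the summed Fos family level per kilobase with DMSO at 4 h, 44.7% ± 1.71 with i-BET858 and 37.2% ± 5.03 under i-BET151. FOSL2 made up 79.3% ± 4.41, 49.9% ± 2.22 and 58.3% ± 4.64 in the same groups. At 24 h the share of FOS was 13.3% ± 0.990 with DMSO, 31.4% ± 3.93 with i-BET858 and 25.4% ± 1.83 under i-BET151. FOSL2 stayed the largest member of its family in all 6 groups.

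In the Jun family, the share of JUND was 37.5% ± 3.63 with DMSO at 4 h, 54.2% ± 6.54 with i-BET858 and 52.8% ± 5.37 under i-BET151 (SD, n = 3). The share of JUN was 49.2% ± 2.96, 33.0% ± 5.10 and 38.1% ± 3.65. The JUNB share at 4 h was 13.3% ± 1.01, 12.8% ± 1.48 and 9.09% ± 1.82 in the same groups. At 24 h the JUNB share was 13.3% ± 1.41 with DMSO, 7.01% ± 0.290 with i-BET858 and 6.30% ± 0.116 under i-BET151. In that order, the 24 h share of JUND was 43.3% ± 4.43, 60.1% ± 3.41 and 54.5% ± 4.76. That of JUN was 43.4% ± 5.82, 32.8% ± 3.29 and 39.2% ± 4.70, so JUN with DMSO and under i-BET151 did not differ beyond the spread. The summed Jun level per kilobase was 133 ± 8.90 CPM per kb with DMSO at 4 h and 314 ± 26.7 with i-BET858. These shares are descriptions and were not tested.

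**Figure D4:**
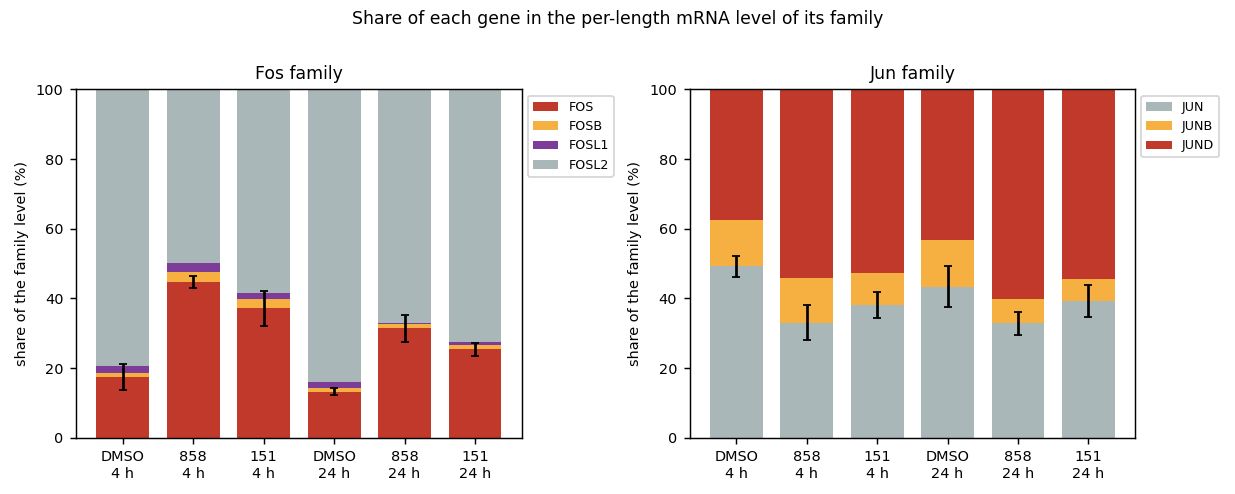
Mean share in percent (y axis, 0 to 100) of each gene in the summed level per kilobase of the Fos family (left) and the Jun family (right), by group (x axis), with error bars (SD, n = 3) on FOS and JUN. The FOS share is 17.3% with DMSO and 44.7% with i-BET858 at 4 h, and JUND takes the largest Jun share in every treated group.

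Other immediate early genes were described from a list of 24, of which 23 were tested. With i-BET858 at 4 h, 17 rose and 2 fell (median log2 fold change 1.36), and at 24 h 12 rose and 1 fell (0.71). Under i-BET151, 13 rose and 2 fell at 4 h, and 10 rose and 1 fell at 24 h. Of all genes, 14.5% rose and 16.3% fell with i-BET858 at 4 h (median 0.02) and 20.5% and 21.3% at 24 h (-0.01), and under i-BET151 7.81% and 8.43% at 4 h and 17.2% and 16.6% at 24 h. NR4A3, an orphan nuclear receptor, had the largest rise of the list with i-BET858 at 4 h. It rose from 0.796 ± 0.360 CPM with DMSO to 6.72 ± 1.32 CPM (SD, n = 3, log2 fold change 3.06, adjusted p = 6.48e-05). At 24 h NR4A3 rose by 3.05 with i-BET858 (adjusted p = 7.25e-04) at a low level. KLF2, a Krüppel-like factor, had the largest rise with i-BET858 there among genes whose average log2 CPM was 1 or more. It rose from 1.38 ± 0.185 to 10.3 ± 4.17 CPM (2.85, adjusted p = 6.50e-05). ZFP36L1, which promotes decay of mRNAs with AU-rich elements, had the largest fall with i-BET858 at both times. It fell by 0.98 at 4 h and 1.42 at 24 h on the log2 scale (adjusted p = 0.00142 and 2.14e-06). Under i-BET151 at 4 h NR4A2 fell most (-1.16, adjusted p = 0.0157), ahead of ZFP36L1 (-1.11, adjusted p = 0.00146).

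NAB1 and NAB2, corepressors that bind EGR proteins, fell in all 4 comparisons with DMSO. With i-BET858 at 4 h, NAB1 fell from 162 ± 16.7 to 45.6 ± 4.62 CPM (SD, n = 3), by 1.83 on the log2 scale (adjusted p = 3.01e-06), and NAB2 fell by 1.19 (adjusted p = 2.48e-04). The i-BET858 values at 24 h were -0.59 for NAB1 (adjusted p = 8.94e-04) and -0.59 for NAB2 (adjusted p = 0.00321). Under i-BET151, NAB1 fell by 1.31 and NAB2 by 0.78 at 4 h, and by 0.39 and 0.38 at 24 h. Beside these falls, 16.3% of all genes fell with i-BET858 and 8.43% under i-BET151 at 4 h, and 21.3% and 16.6% at 24 h. EGR1 rose in the same 4 comparisons, and a link between these changes was not tested.

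Of the other AP-1 family genes, 4 of 6 were tested. With i-BET858 at 4 h JDP2, a repressor that pairs with Jun proteins, rose by 0.37 (adjusted p = 0.0489), while ATF2, a partner of JUN, fell by 1.39 (adjusted p = 0.00511) and ATF7 fell by 0.84 (adjusted p = 0.00714). At 24 h JDP2 fell by 0.67 (adjusted p = 0.00212) and the other 3 were not called. Under i-BET151, ATF2 was at -0.75 at 4 h (adjusted p = 0.123), while at 24 h JDP2 fell by 0.72 (adjusted p = 0.00191) and ATF7 rose by 0.63 (adjusted p = 0.0161). Over all genes, 14.5% rose and 16.3% fell with i-BET858 at 4 h, and 20.5% and 21.3% at 24 h. Under i-BET151 the shares were 7.81% and 8.43% at 4 h, and 17.2% and 16.6% at 24 h.

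Upstream regulators comprised 21 genes for kinases of the MAPK cascades, ribosomal S6 kinases, serum response factor and its cofactors, and CREB1, all tested. With i-BET858 at 4 h, 2 rose and 5 fell, and at 24 h 10 rose and 4 fell, against 2 and 2, and 11 and 3, under i-BET151. Over all genes 14.5% rose and 16.3% fell with i-BET858 at 4 h, 20.5% and 21.3% at 24 h, and 7.81% and 8.43%, then 17.2% and 16.6%, under i-BET151, so the counts at 4 h and the falls at 24 h were near the background. SRF, which binds the CArG box, rose by 0.62 with i-BET858 at 4 h (adjusted p = 0.00300). Under i-BET151 its value at 4 h was 0.23 (adjusted p = 0.259), and at 24 h SRF was called with neither inhibitor. With i-BET858 ELK3, an SRF cofactor that can repress, fell from 9.25 ± 1.62 to 3.07 ± 0.573 CPM at 4 h (SD, n = 3, log2 fold change -1.58, adjusted p = 6.19e-04) and by 2.67 at 24 h (adjusted p = 1.76e-05). RPS6KA2, a ribosomal S6 kinase, rose by 1.27 with i-BET858 at 24 h (adjusted p = 9.09e-05).

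Among 20 genes known as AP-1 targets, 14 were tested. With i-BET858, 3 rose and 3 fell at 4 h, and 3 rose and 5 fell at 24 h. Under i-BET151 it was 3 and 3 at 4 h, and 2 and 7 at 24 h. Of all genes, 14.5% rose and 16.3% fell with i-BET858 at 4 h and 20.5% and 21.3% at 24 h, and 7.81% and 8.43%, then 17.2% and 16.6%, under i-BET151. The 7 of 14 that fell under i-BET151 at 24 h stood furthest from their share of all genes, and no test of the list was run. HMOX1, the stress-induced haem oxygenase, rose from 1.77 ± 0.0925 to 12.7 ± 2.07 CPM with i-BET858 at 4 h (SD, n = 3, log2 fold change 2.85, adjusted p = 7.16e-06). CXCL8, a chemokine, fell by 2.01 with i-BET858 at 4 h (adjusted p = 0.00643). At 24 h with i-BET858 AREG, an EGF receptor ligand, rose by 1.19 (adjusted p = 0.00497), and PLAU, which encodes urokinase, fell from 19.2 ± 2.64 to 2.22 ± 0.107 CPM (SD, n = 3, log2 fold change -3.15, adjusted p = 1.81e-06).

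**Figure D5:**
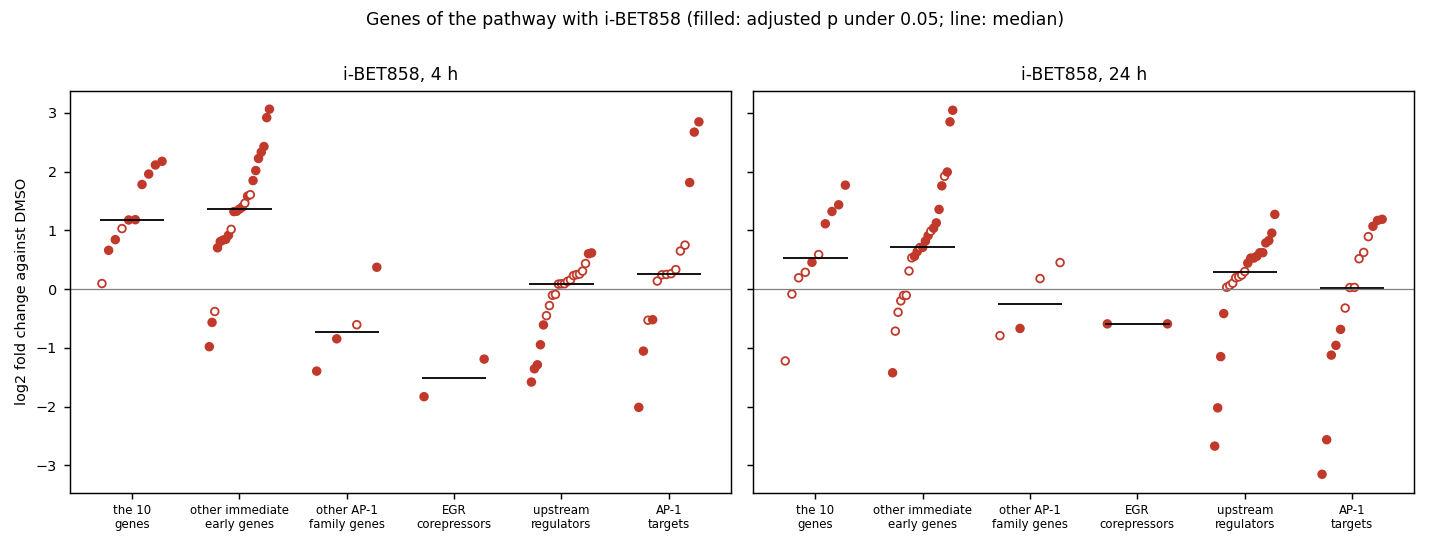
Log2 fold change against DMSO (y axis) with i-BET858 at 4 h (left) and 24 h (right) for the 10 genes and the tested genes of 5 related lists (x axis), with each point a gene, filled where the adjusted p was below 0.05, and lines at list medians. The medians at 4 h are 1.18 for the 10 genes, 1.36 for the other immediate early genes and -1.51 for the EGR corepressors, while AP-1 targets spread to both sides of 0.

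Across the 18 libraries, the log2 levels of the 45 pairs among the 10 genes had Pearson correlations of -0.16 to 0.94 with a median of 0.60. After the group means were taken out, they ranged from -0.82 to 0.75 with a median of 0.06. JUND and ATF3 had 0.71 before and -0.82 after that step, and replicate 3 had the highest JUND and the lowest ATF3 of each group. The libraries share groups and replicate numbers, so the points are not independent and these values are descriptions. The profile most like that of each gene was sought among the 18144 genes tested outside the list. An r above 0.9 was reached by 209 genes for FOS, 193 for JUND, 178 for JUN and 140 for ATF3. It was reached by 91 for EGR1, 38 for JUNB, 24 for FOSB, 1 for FOSL1 and 0 for FOSL2 and IER2. The highest r was that of NOCT for FOS, RHOV for JUNB, MIDN for JUND and GADD45A for ATF3 (each 0.98). EGR1 was closest to PABPC1 (0.97), JUN to EEPD1 (0.96), FOSB to ZNF556 (0.95), FOSL1 to IFITM1 (0.91), IER2 to MYL6 (0.88) and FOSL2 to KDM2A (0.83), each over 18 libraries.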

How the data were processed

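The data are 18 RNA sequencing libraries from OVCAR-3 cells. Per the labels and the study's methods, the authors enriched poly-A RNA, sequenced paired reads, aligned them to GRCh38 with STAR and deposited raw counts per gene, without normalization. The gene annotation and the strand setting are not given in the sources used here. Of the identifiers, 58472 of 58825 (99.4%) matched GENCODE 44, from which symbols and positions were taken.

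Counts of each time point entered the quasi-likelihood model of edgeR 4.0.16 (R 4.3.3; TMM, filterByExpr, Benjamini-Hochberg adjustment over all genes), with the 3 groups in 1 fit. The change of an effect between times and the DMSO time difference came from a fit of all 18 libraries. Correlations used log2 CPM with a prior count of 2. The limit of a gene without a count covers counting error only. Motifs were searched as exact letters on both strands of RefSeq windows (GRCh38.p14).

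The 10 genes, the related lists and the tests were chosen with earlier results of these data known. All 10 genes are named, and from each related list the called gene with the largest rise and fall with i-BET858 at 4 and 24 h, at an average log2 CPM of at least 1, plus the most alike profile of each gene. ATF7 and NAB2 at 4 h were named after their values were seen, to complete a count of their list. Also named outside the rule were NAB1 and NR4A3 with i-BET858 at 24 h, and under i-BET151 NR4A2 at 4 h and ATF7 at 24 h.

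Replicates of a group differed by 3.28 to 48.4 times the counting variance (chi-square per degree of freedom). After removal of group means, libraries of the same replicate number correlated at 0.125 to 0.344 at 4 h and 0.145 to 0.330 at 24 h. All were above 0.1, so the numbers were taken to pair the libraries. Libraries of different numbers correlated at -0.311 to 0.216 (median -0.204) at 4 h and -0.304 to 0.285 (median -0.232) at 24 h. These ranges overlap, and replicate 3 stood apart. The check therefore cannot separate a pairing of replicates 1 and 2 from a difference shared by the replicate 3 libraries. Alternatives were the replicate block, DESeq2 1.42.0, DESeq2 size factors, total library size, no filter, replicates 1 and 2 only, other sets of groups, a fold change of at least 2 and each library left out.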

Additional observations from a re-analysis of the deposited data

Results flagged for a closer look

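The effect of an inhibitor differed between 4 and 24 h, by the drug-by-time term of the edgeR fit, in 3 cases. For FOSL1 with i-BET858 the difference was -2.21 on the log2 scale (adjusted p = 0.0283), and it rested on 10 to 97 counts per DMSO or i-BET858 library. For JUNB the difference was -1.22 under i-BET858 (adjusted p = 1.68e-04) and -0.86 under i-BET151 (adjusted p = 0.00696). No test for an outlying value within a group was run, since each group held 3 libraries.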

How the results depend on the processing

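Of 600 alternative values for the comparisons with DMSO, 569 kept their direction and their side of the threshold, 17 lost and 7 gained a call, and 7 changed sign. Of the 17 losses, 9 came from the fold criterion alone. For i-BET858 against i-BET151 at 4 h (1 gene), 0 were called with the fold criterion and with only the 2 groups, 2 with replicates 1 and 2 or with all 18 libraries, 3 with DESeq2 or without the filter, 5 with the replicate block, and 0 to 0 with single libraries left out. Of all genes 0.971% were called there, and in the same order of settings 0.209, 0, 2.29, 3.02, 5.21, 1.6 and 9.63%. With single libraries left out, 0 to 44 of all genes were called, against 167 with all libraries. At 24 h (0 genes), the counts were 1 without the filter and 3 with the replicate block or replicates 1 and 2, beside 0.21% of all genes, and 1.08, 4.37 and 7.29% in those settings. For i-BET151 against DMSO at 24 h (6 genes), the fold criterion left 1. The change of the i-BET858 effect (2 genes) was called in 3 genes with DESeq2, 5 with the block, 4 with replicates 1 and 2, and 1 to 3 with single libraries left out, beside 27.2% of all genes, and 30.9, 38.3 and 40.6% in the first 3 settings. For i-BET151 (1 gene), the counts were 0 with the fold criterion, 2 with total library size, 3 with the block or replicates 1 and 2, and 1 to 2 with single libraries left out, beside 13.8% of all genes, and 6.7, 13.7, 25.2 and 26.3% in the first 4 settings. Between the times in DMSO (0 genes), 1 was called with DESeq2 and 2 without the filter or with the block, beside 0.0386% of all genes, and 1.28, 0.461 and 2.07% in those settings. With single libraries left out, 4058 to 4834 of all genes were called for a change of the i-BET858 effect, against 4941 with all libraries. For i-BET151 the range was 1595 to 2401, against 2508. The cause of these shifts was not tested. The block changed no other call than those given here and beside the results.

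Scaling by total library size moved the median of all genes with i-BET858 at 4 h from 0.02 to -0.14, and the share of calls that were higher from 47.1 to 31.9%. At 4 h for the difference between inhibitors that share moved from 42.5 to 16.6%, and at 24 h from 44.4 to 26.8%. Only uncalled values changed sign. With replicates 1 and 2 these were FOS (change of the i-BET151 effect, -0.21), FOSB between inhibitors at 24 h (0.20) and in DMSO over time (0.039), FOSL2 between inhibitors at 24 h (0.012), JUNB with i-BET858 at 24 h (0.046) and EGR1 (change of the i-BET151 effect, -0.13). The latter was -0.031 with DESeq2, -0.032 with its size factors and -0.013 with the block. FOSL1 with i-BET151 at 4 h became 0.044 with the block, FOSL2 with i-BET858 at 4 h -0.064 and EGR1 (change of the i-BET858 effect) 0.0044 with total library size. With single libraries left out, values that changed sign ranged, at 4 h, from -0.34 to 0.45 for FOSL1 with i-BET151, and at 24 h from -0.19 to 0.10 for JUNB with i-BET858 and from -0.38 to 0.065 for IER2 with i-BET151. Between the inhibitors at 24 h the ranges were -0.23 to 0.25 for FOSB, -0.98 to 0.023 for FOSL1, -0.10 to 0.029 for FOSL2 and -0.10 to 0.32 for EGR1. They were -0.24 to 0.17 and -0.20 to 0.20 for the EGR1 changes of effect (i-BET858 and i-BET151), and -0.21 to 0.039 for JUNB in DMSO over time.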
